A study of Mus musculus with 30 samples.

Results

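The genes described here are 9 immediate targets and feedback regulators of transforming growth factor β (TGF-β): Smad7, Smad6, Skil, Ski, Tgfbi, Pmepa1, Ltbp2, Smad3 and Ccn2. They were chosen by symbol, and all 9 were found among the 55487 genes counted. Their levels were compared across 8 groups, formed by 2 cell fractions and 4 exposures, in 30 bulk RNA-sequencing libraries. Epcam+ lung epithelial cells of 4 adult wild-type C57BL/6J mice, depleted of CD31+ and CD45+ cells, were grown in Matrigel together with CCL206. CCL206 is a fibroblast line from mouse lung and had been treated with mitomycin C so that it no longer divided. The cultures were exposed for 72 hours to vehicle, to 2 ng/ml TGF-β, to IPFc or to EC. IPFc is a cocktail of 9 factors named after idiopathic pulmonary fibrosis (TGF-β, TNFα, TSLP and the chemokine CCL2 with the interleukins IL-1β, IL-33, IL-13, IL-8 and IL-4), and its TGF-β dose was not given in the sources used here. EC is an exacerbation cocktail of 4 factors modelled on chronic obstructive pulmonary disease (TNFα, IL-1β, IL-6 and IL-8) and holds no TGF-β. For mouse cells, the methods of the study name the mouse chemokine KC in place of IL-8 in EC. All groups shared the culture medium with the ROCK inhibitor Y-27632. After digestion the cells were separated with Epcam microbeads into an Epcam+ fraction (epithelial libraries, n = 15) and a CCL206 fraction (fibroblast libraries, n = 15). Each exposure had 4 libraries per fraction, 1 from each mouse, except that epithelial TGF-β of mouse 1 and fibroblast vehicle of mouse 2 were not analysed here. Since the fibroblasts of all cultures came from 1 line, a mouse number marks the co-culture for them and not another fibroblast donor.

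TGF-β binds a pair of receptor kinases, and the activated receptor phosphorylates Smad2 and Smad3, which enter the nucleus with Smad4 and bind short DNA motifs. Among the first genes switched on are the brakes of the pathway itself. Smad7 and Smad6 are inhibitory Smads that act at the receptor, Smad6 mainly on the related bone morphogenetic protein (BMP) pathway. Skil (SnoN) and Ski are nuclear corepressors of the Smads, and Pmepa1 encodes a membrane protein that keeps Smad2 and Smad3 from the receptor. Ltbp2, Tgfbi and Ccn2 encode secreted proteins: Ltbp2 belongs to the latent TGF-β binding protein family and sits on matrix microfibrils, Tgfbi is a matrix protein that cells bind through integrins, and Ccn2 (connective tissue growth factor) is a matricellular protein long tied to fibrosis.

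The libraries held between 5113828 and 20317181 reads counted on genes. The fibroblast EC library of mouse 1 was the smallest. Values are given as CPM, read counts relative to library size, with sizes scaled by TMM over all 30 libraries. The fractions carried the markers of their labels. Epcam ranged from 217 to 388 CPM in epithelial and from 3.04 to 112 CPM in fibroblast libraries, and Col1a1 from 817 to 4977 CPM in fibroblast and from 56.7 to 1086 CPM in epithelial libraries. The 14 immune markers summed to 1.46 to 14.7 CPM, with Ptprc at or below 1.05 CPM. The 12 endothelial markers summed to 3.75 to 32.8 CPM, with Esam at up to 26.3 CPM, and were lowest with TGF-β in both fractions, while Pecam1 was highest in fibroblast TGF-β libraries (1.56 to 2.66 CPM). Of 4 mesothelial markers, Msln was at 471 to 976 CPM in epithelial and 97.6 to 415 CPM in fibroblast libraries, and Wt1, Upk3b and Lrrn4 were at or below 0.679 CPM in every library. Neither fraction was free of the other, and the amount moved with the exposure. How much RNA came from the partner cells was estimated as the median ratio of CPM to the other library of the same culture, over marker genes of that other fraction. Where that library was not analysed here, the mean of the other fraction's libraries with the same exposure stood in for it. In epithelial libraries the share of fibroblast RNA was 4.77 to 10.1% with vehicle, 5.62 to 17.2% with EC, 4.65 to 17.3% with IPFc and 24.1 to 28.7% with TGF-β. The 24 fibroblast markers summed to 875 to 1423 CPM in epithelial vehicle libraries and to 6620 to 7054 CPM in epithelial TGF-β libraries. A second estimate, chosen after seeing the data, used Xist for fibroblast RNA and 4 Y-linked genes for epithelial RNA. It takes the epithelial donors as male and the fibroblast line as female, which is not shown here. The methods of the study name mice of both sexes. From Xist the share in epithelial libraries was 3.47 to 16.7% with vehicle, 4.99 to 13.8% with IPFc, 23.4 to 35.6% with TGF-β and 5.52 to 46.0% with EC. The EC library of mouse 1 had the 46.0%, above all TGF-β libraries, where the marker genes gave 17.2%. In fibroblast libraries the share of epithelial RNA went the other way. It was 15.6 to 28.9% with vehicle, 10.7 to 29.9% with IPFc, 37.2 to 52.6% with EC and 1.06 to 3.77% with TGF-β, and from the Y-linked genes it was 15.5 to 23.4% with vehicle, 10.9 to 20.1% with IPFc, 30.6 to 35.9% with EC and 0.231 to 2.00% with TGF-β. The 29 epithelial markers summed to 7190 to 11965 CPM in fibroblast vehicle libraries and to 198 to 695 CPM in fibroblast TGF-β libraries. Fewer cells of a type and less RNA per cell cannot be told apart in such bulk libraries. The share is given beside several members it touches, and several calls that ended after its subtraction from the counts are named. Subtraction of the share from marker genes also lowered the percentage of all genes called. With TGF-β this fell from 41.1 to 26.4% in epithelial and from 19.2 to 4.85% in fibroblast libraries. With EC it fell from 7.11 to 0.195% in fibroblast libraries. A lost call alone therefore does not show that a difference went. The part of the other fraction's RNA in the other results was not tested.

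**Figure D1:**
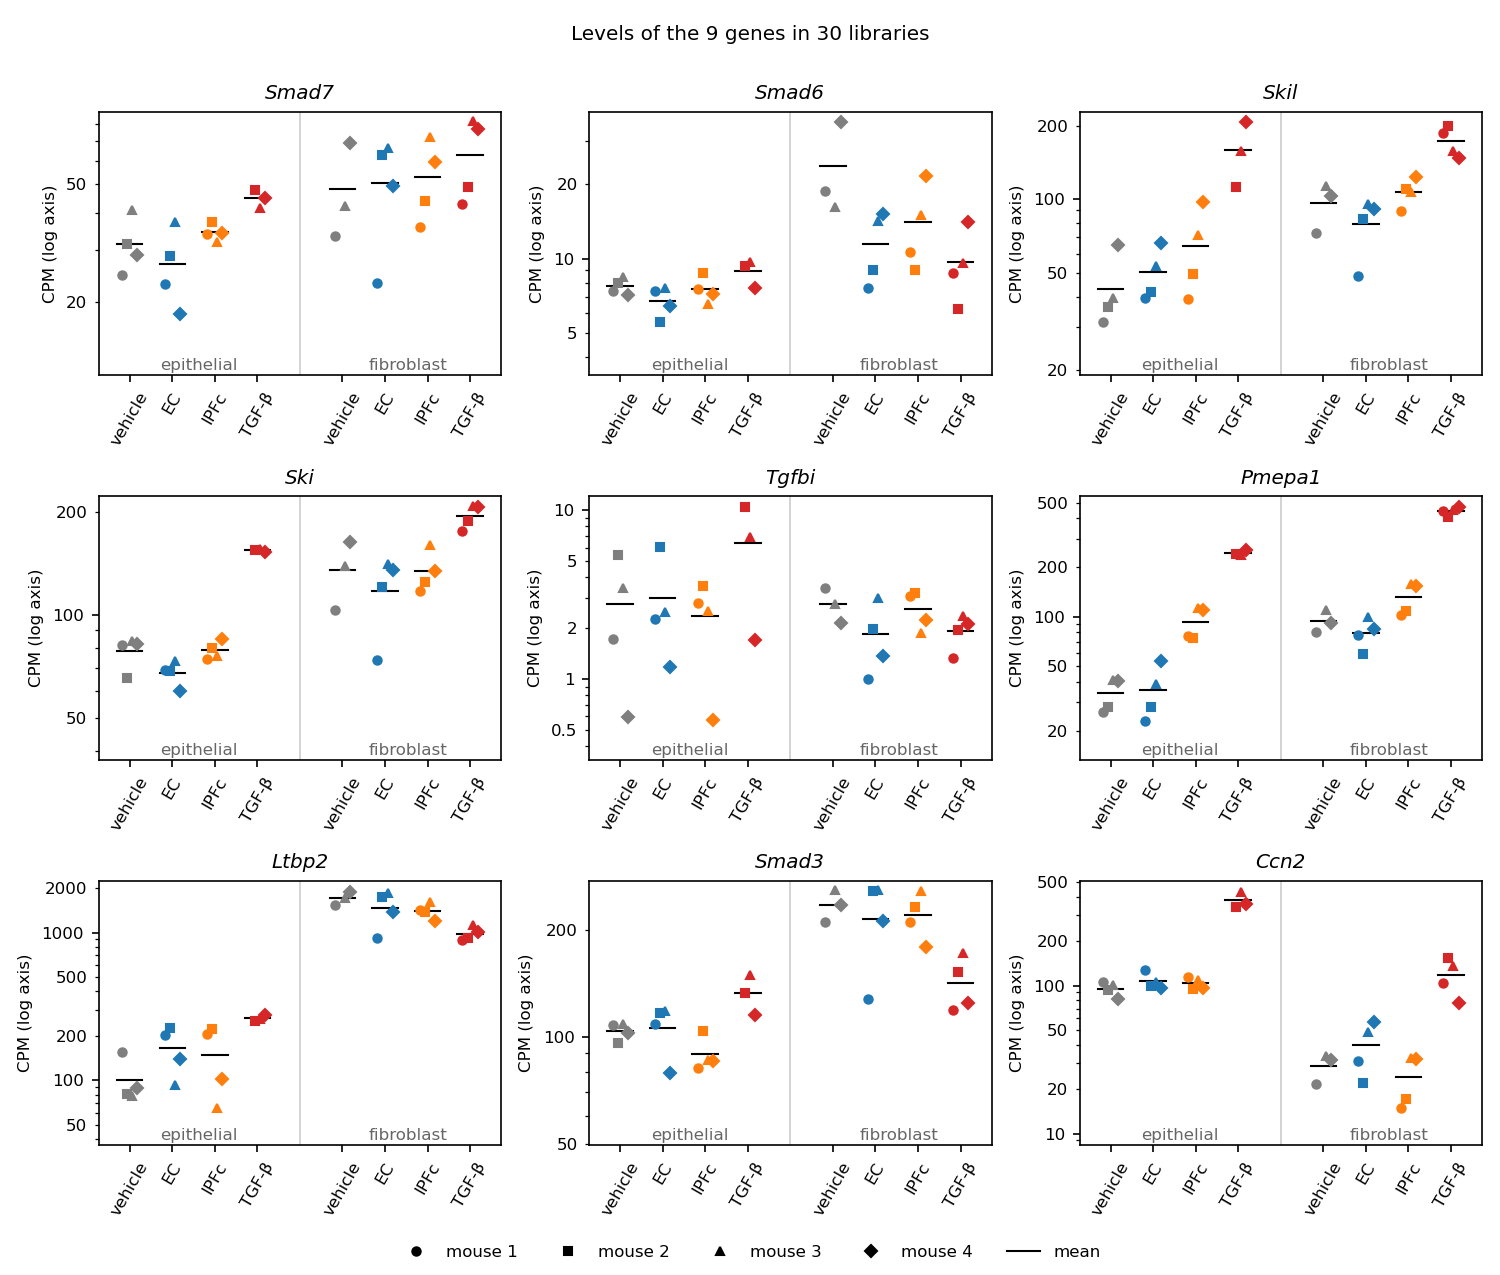
CPM (log axis) of each of the 9 genes in every library, grouped by fraction and exposure, with 1 symbol per mouse and a line at the group mean. Pmepa1 is highest in TGF-β libraries of both fractions, while Ltbp2 lies at or below 278 CPM in the 15 epithelial libraries and at or above 885 CPM in the 15 fibroblast libraries.

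With vehicle, 7 of the 9 genes were lower in epithelial than in fibroblast libraries, Ccn2 was higher, and Tgfbi did not pass the test (edgeR quasi-likelihood test on counts, with the mouse as a block and a Benjamini-Hochberg adjusted p under 0.05). Of all 18364 genes tested, 56% were called between the fractions. Per kilobase of exon, the highest mean level of the 9 genes in epithelial vehicle libraries was that of Ccn2 (29.9 CPM per kb), followed by Smad3 (18.0 CPM per kb). In fibroblast vehicle libraries Ltbp2 led by far with 209.7 CPM per kb, followed by Smad3 with 40.6 CPM per kb. Tgfbi had the lowest mean level in both fractions, at 0.740 and 0.738 CPM per kb. Ltbp2 was lower in epithelial libraries by a log2 difference of -4.17 (SE 0.33, edgeR adjusted p = 3.75e-11). Ccn2 was higher there by 1.79 (SE 0.27, edgeR adjusted p = 2.46e-06). Smad7 had the smallest of the differences called, -0.62 (SE 0.23, edgeR adjusted p = 0.0252), and lost the call when the other fraction's share was subtracted (edgeR adjusted p = 0.0586) or mouse 4 was left out (edgeR adjusted p = 0.39).

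In epithelial libraries 8 of the 9 genes were called higher with TGF-β and 0 lower. Of all 18024 genes tested, 41.1% were called in this comparison, 3783 higher and 3617 lower, and the median log2 fold change was 1.21 over the members and 0.03 over all genes. In fibroblast libraries 4 of the 9 genes were called higher with TGF-β (Skil, Ski, Pmepa1 and Ccn2) and 3 lower (Smad6, Ltbp2 and Smad3), where 19.2% of 18048 genes were called. The median log2 fold change there was 0.45 over the members and -0.02 over all genes. Among the 9 genes, the largest rises in both fractions were those of Pmepa1 and Ccn2. These counts are for libraries with the other fraction's RNA in them. After subtraction of either share estimate, Skil, Ski, Tgfbi, Smad3 and Ccn2 stayed called in epithelial libraries. In fibroblast libraries Smad6, Pmepa1, Ltbp2 and Smad3 did. The fibroblast share would bring 92.7 to 105% of the Ltbp2 level in epithelial TGF-β libraries.

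**Figure D2:**
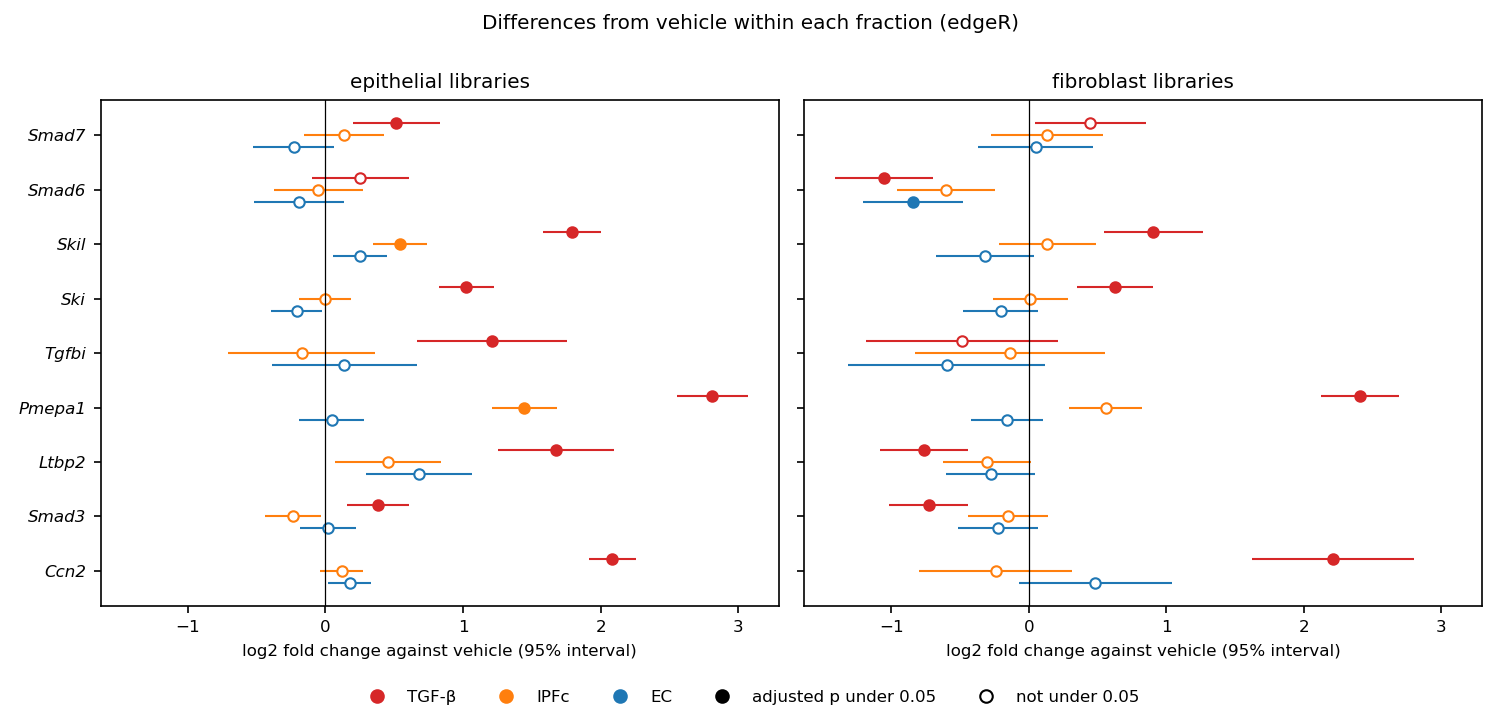
Log2 fold change against vehicle with its 95% interval for each gene (rows), in epithelial (left) and fibroblast libraries (right), coloured by exposure, with filled points where the edgeR adjusted p was under 0.05. With TGF-β 8 genes were called higher in epithelial libraries, Ltbp2 among them, whereas Smad6, Ltbp2 and Smad3 were called lower in fibroblast libraries. The other fraction's RNA was not subtracted.

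Pmepa1 (ENSMUSG00000038400) had its highest mean level with TGF-β and the next with IPFc in both fractions. In epithelial libraries it was at 26.1, 28.0, 41.1 and 40.1 CPM with vehicle in mice 1 to 4 and at 241, 240 and 255 CPM with TGF-β in mice 2 to 4. In fibroblast libraries it was at 80.1, 109 and 90.8 CPM with vehicle in mice 1, 3 and 4, and between 405 and 470 CPM with TGF-β. No TGF-β library overlapped with a vehicle library. The rise was 2.81 on the log2 scale in epithelial (SE 0.13, edgeR adjusted p = 1.96e-12) and 2.41 in fibroblast libraries (SE 0.14, edgeR adjusted p = 3.51e-09), a 7.02-fold and a 5.31-fold change. RNA from fibroblasts at their own level could have supplied 42.9 to 52.8% of the Pmepa1 reads in epithelial TGF-β libraries. After subtraction of that share the rise was 2.50 (edgeR adjusted p = 4.07e-06). With the share taken from Xist it was 2.22 with an SE of 0.85 and no longer passed the test (edgeR adjusted p = 0.103). That fit also held the epithelial EC library of mouse 1, with Pmepa1 at 23.0 CPM, its partner at 77.2 CPM and an Xist share of 46.0%. The part of this library in the larger SE was not tested.

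The corepressor gene Skil (ENSMUSG00000027660) rose in both fractions. Epithelial libraries held 31.4 to 64.9 CPM with vehicle and 112, 158 and 208 CPM with TGF-β, without overlap, a rise of 1.79 (SE 0.11, edgeR adjusted p = 6.68e-11). RNA from fibroblasts at their own level could have supplied 20.3 to 45.2% of Skil in these TGF-β libraries. Fibroblast libraries held 72.6 to 114 CPM with vehicle and 147 to 199 CPM with TGF-β, again without overlap, a rise of 0.91 (SE 0.18, edgeR adjusted p = 0.00168). The order of the mice differed between the fractions, since mouse 4 had the highest Skil level of the TGF-β libraries in the epithelium and the lowest in fibroblasts. Its partner Ski (ENSMUSG00000029050) was at 65.1 to 84.0 CPM in epithelial vehicle libraries and at 154, 156 and 153 CPM with TGF-β, a rise of 1.03 (SE 0.10, edgeR adjusted p = 8.77e-08). Fibroblast RNA could have supplied 31.1 to 39.0% of Ski in these TGF-β libraries. In fibroblasts it went from 103, 139 and 164 CPM to between 177 and 209 CPM, a rise of 0.63 (SE 0.14, edgeR adjusted p = 0.00379). Neither fibroblast rise was called with the epithelial share taken off. Of all genes, 4.85% were called in that setting, against 19.2% without subtraction. After subtraction of the epithelial share, Skil rose by 0.68 (edgeR adjusted p = 0.202) and Ski by 0.46 (edgeR adjusted p = 0.383), and Ski also missed the threshold without mouse 3 (edgeR adjusted p = 0.0582).

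Of the inhibitory Smads, Smad7 (ENSMUSG00000025880) was at 24.7, 31.3, 41.0 and 28.8 CPM in epithelial vehicle libraries and at 47.9, 41.7 and 45.0 CPM with TGF-β. The lowest TGF-β library lay just above the highest vehicle library, and mouse 3, which was high in vehicle, gained least. The rise was 0.52 (SE 0.16, edgeR adjusted p = 0.0143), a 1.43-fold change. It was lost after subtraction of the fibroblast share (0.30, edgeR adjusted p = 0.402) and when mouse 2 or mouse 4 was left out. In fibroblast libraries Smad7 varied more between mice than between exposures, from 33.3 to 68.7 CPM with vehicle and from 43.0 to 81.7 CPM with TGF-β. The difference of 0.45 (SE 0.21) had an edgeR adjusted p of 0.158, with the TGF-β library higher in 3 of 3 mouse pairs. It passed the test without the small EC library of mouse 1 (edgeR adjusted p = 0.0203).

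Smad6 (ENSMUSG00000036867) fell in fibroblast libraries with TGF-β. It was at 18.8, 16.2 and 36.0 CPM with vehicle in mice 1, 3 and 4 and at 8.75, 6.28, 9.62 and 14.0 CPM with TGF-β in mice 1 to 4, without overlap. The log2 fold change was -1.05 (SE 0.18, edgeR adjusted p = 0.000384). In epithelial libraries, at 7.13 to 8.46 CPM with vehicle and 7.61 to 9.72 CPM with TGF-β, the difference of 0.25 (SE 0.18) did not pass the test (edgeR adjusted p = 0.288), and its 95% interval ran from -0.10 to 0.61.

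Smad3 (ENSMUSG00000032402), which carries the signal to DNA, was called in opposite directions in the fractions. Fibroblast libraries had 210, 259 and 236 CPM with vehicle and 119 to 172 CPM with TGF-β, a change of -0.73 (SE 0.15, edgeR adjusted p = 0.00165). Epithelial libraries had 96.3 to 109 CPM with vehicle and 115 to 150 CPM with TGF-β, a rise of 0.38 (SE 0.11, edgeR adjusted p = 0.0108). Fibroblast RNA could have supplied 27.7 to 31.0% of Smad3 in these TGF-β libraries. Neither pair of groups overlapped. The epithelial rise was the smaller of the changes, and it missed the threshold without mouse 2 (edgeR adjusted p = 0.105) or mouse 3 (edgeR adjusted p = 0.0877).

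Ccn2 (ENSMUSG00000019997) was the only member called higher in epithelial than in fibroblast libraries both with vehicle and with TGF-β. In epithelial libraries it stood at 81.0 to 106 CPM with vehicle and at 342, 430 and 357 CPM with TGF-β, a rise of 2.09 (SE 0.09, edgeR adjusted p = 4.41e-13) or 4.24-fold. In fibroblasts it was at 21.7, 33.3 and 31.6 CPM with vehicle and at 104, 154, 135 and 76.0 CPM with TGF-β, a rise of 2.21 (SE 0.30, edgeR adjusted p = 3.23e-05). Epithelial RNA could have supplied 47.4 to 78.7% of the reads in the fibroblast vehicle libraries, against 3.39 to 17.7% with TGF-β. After subtraction 5.76, 22.4 and 12.0 CPM of the remaining reads were left with vehicle and 64.3 to 152 with TGF-β, still without overlap, but the rise of 3.80 had an SE of 1.21 (edgeR adjusted p = 0.128).

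Ltbp2 (ENSMUSG00000002020) was by level a gene of the fibroblast libraries. It was at 1535, 1725 and 1888 CPM with vehicle and at 885 to 1126 CPM with TGF-β, a change of -0.76 (SE 0.16, edgeR adjusted p = 0.00239) that just missed the threshold without mouse 4 (edgeR adjusted p = 0.0504). In epithelial libraries it was at 156, 80.2, 78.0 and 89.3 CPM with vehicle and at 251, 258 and 278 CPM with TGF-β, a rise of 1.67 (SE 0.22, edgeR adjusted p = 2.37e-06). This rise followed the share of fibroblast RNA closely. The amount of Ltbp2 that the share would bring from the partner library was 99.5 to 117% of the measured value with vehicle, 77.3 to 123% with EC, 109 to 116% with IPFc and 92.7 to 105% with TGF-β. After subtraction, 3 of 4 vehicle libraries and 2 of 3 TGF-β libraries were at 0 CPM, and no fold change is given for what was left.

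**Figure D3:**
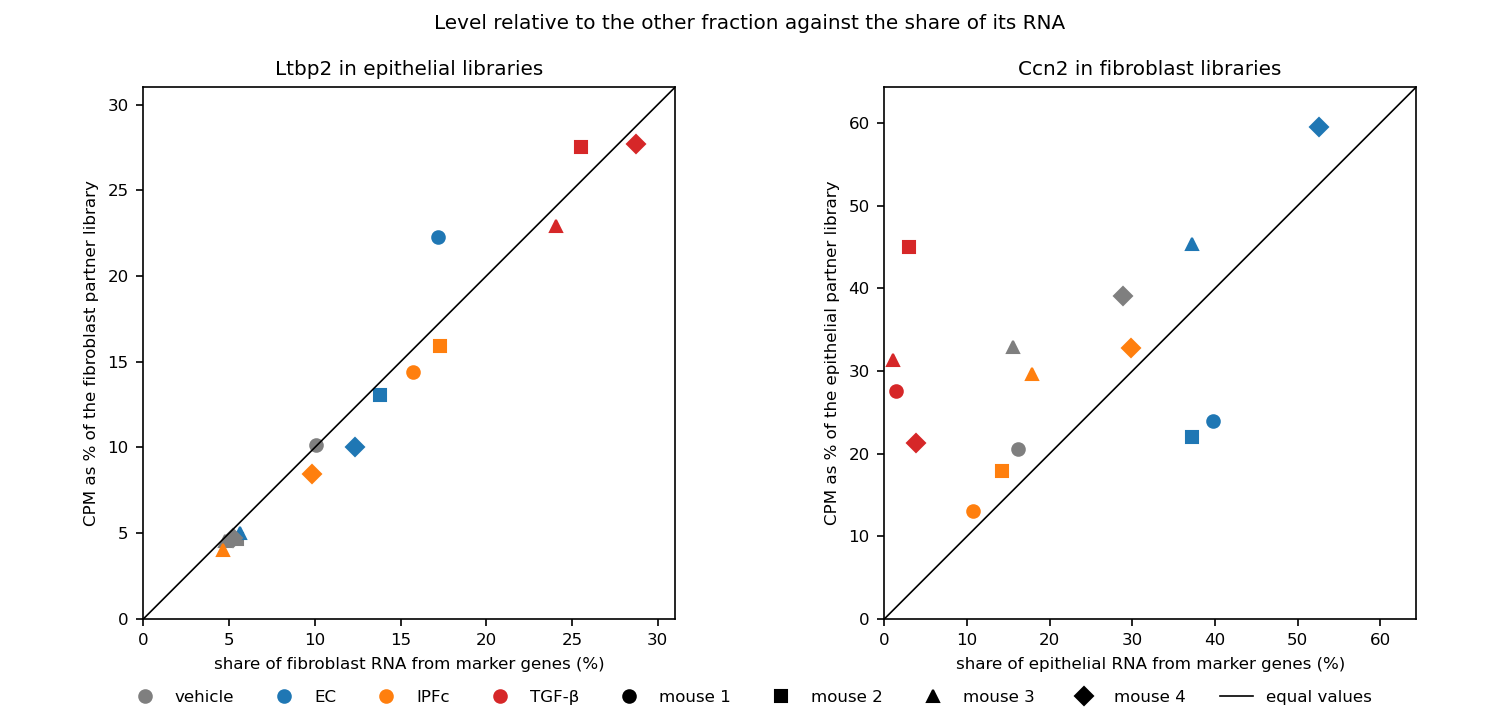
Level of a gene as a percentage of its level in the partner library (vertical) against the share of the partner's RNA estimated from marker genes (horizontal), for Ltbp2 in the 15 epithelial libraries (left) and Ccn2 in the 15 fibroblast libraries (right), coloured by exposure, with 1 symbol per mouse and a line of equal values. Ltbp2 lies along the line at all exposures, while the epithelial share would supply 3.39 to 17.7% of Ccn2 in the 4 fibroblast TGF-β libraries, which lie far above the line.

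Tgfbi (ENSMUSG00000035493) was the least expressed member, with 5 to 214 reads per library. In epithelial libraries mice differed more than exposures. Vehicle libraries had 1.71, 5.44, 3.44 and 0.594 CPM in mice 1 to 4 and TGF-β libraries 10.4, 6.97 and 1.70 CPM in mice 2 to 4, so the groups overlapped although each of the 3 mouse pairs was higher with TGF-β. With the mouse as a block the rise was 1.21 (SE 0.28, edgeR adjusted p = 0.00143), and without the block it was not called (1.26, edgeR adjusted p = 0.129). In fibroblasts the difference was -0.49 (SE 0.36, edgeR adjusted p = 0.416), with 2.14 to 3.46 CPM for vehicle and 1.33 to 2.36 CPM for TGF-β.

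**Figure D4:**
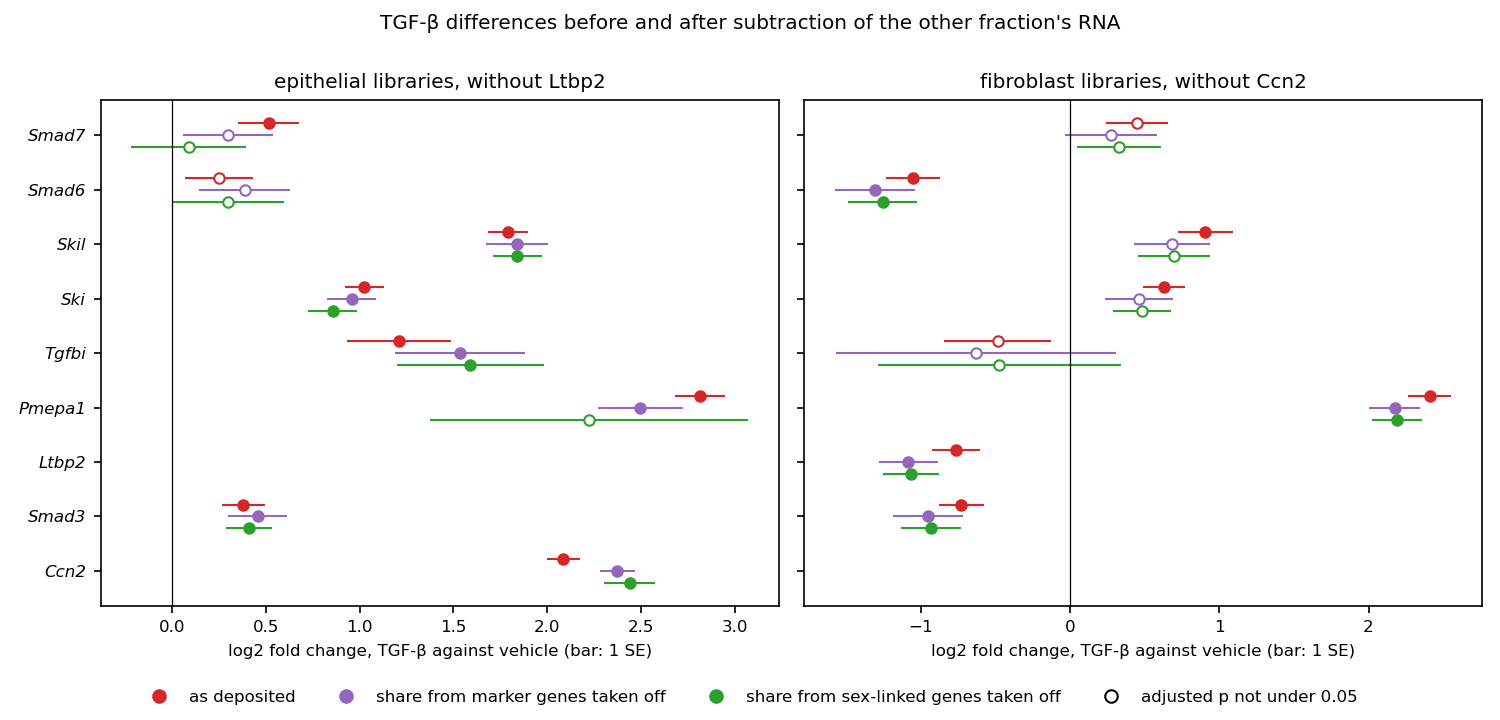
Log2 fold change of TGF-β against vehicle (bars, 1 SE) in counts as deposited and after subtraction of the other fraction's RNA, estimated from marker genes or from sex-linked genes, with open points where the edgeR adjusted p was not under 0.05. Ltbp2 in epithelial and Ccn2 in fibroblast libraries are not drawn, since subtraction left most Ltbp2 values at 0 and an SE of 1.21 for Ccn2. Skil, Ski, Tgfbi, Smad3 and Ccn2 stay called in epithelial libraries under both estimates, and Smad6, Pmepa1, Ltbp2 and Smad3 in fibroblast libraries.

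Whether the fractions differed in their response to TGF-β was tested as an interaction of fraction and exposure over all 30 libraries. The response was higher in epithelial than in fibroblast libraries for 5 of the 9 genes, where 27.5% of 18364 genes were called. The median of this difference over all genes was 0.21, and the 5 members lay above it. Ltbp2 differed by 2.46 (SE 0.31, edgeR adjusted p = 1e-06) and Tgfbi by 1.72 (SE 0.45, edgeR adjusted p = 0.00501). Smad6 differed by 1.33 (SE 0.25, edgeR adjusted p = 0.000179), Smad3 by 1.13 (SE 0.20, edgeR adjusted p = 6.53e-05) and Skil by 0.91 (SE 0.22, edgeR adjusted p = 0.00237). Smad6, Skil and Smad3 stayed called after subtraction of either share, and Tgfbi did not (edgeR adjusted p = 0.128 and 0.147). Skil missed the threshold without mouse 3 (edgeR adjusted p = 0.0926). The Ltbp2 difference includes the epithelial rise that moved with the fibroblast share. Pmepa1 and Ccn2 rose in both fractions, and the responses differed by 0.43 (95% interval 0.05 to 0.80, edgeR adjusted p = 0.108) and by -0.10 (95% interval -0.71 to 0.52, edgeR adjusted p = 0.868). In TGF-β libraries themselves, 2 genes (Tgfbi and Ccn2) were higher and 4 (Smad7, Ski, Pmepa1 and Ltbp2) lower in epithelial than in fibroblast libraries, where 48.2% of genes were called. Pmepa1 was lower by -0.92 on the log2 scale (SE 0.15, edgeR adjusted p = 1.31e-05). After subtraction of the share from marker genes, 2 of these 6 genes stayed called, Pmepa1 and Ltbp2. The differences of the others kept their direction and were larger, at 1.94 for Ccn2 (SE 0.78, edgeR adjusted p = 0.0512), 1.69 for Tgfbi (SE 0.81, edgeR adjusted p = 0.102), -0.88 for Smad7 (SE 0.36, edgeR adjusted p = 0.0535) and -0.57 for Ski (SE 0.23, edgeR adjusted p = 0.0509).

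Smads bind the motif CAGAC, the SMAD box, so the bases before the transcript start are shown for 3 members. Their response to TGF-β differed between the fractions in the counts as deposited, Tgfbi and Ltbp2 with boxes and Smad3 without. The Tgfbi difference was not called after subtraction of either share. That of Ltbp2 includes the epithelial rise that moved with the fibroblast share. Smad6, whose difference stayed called, held no box. RefSeq sequences of build GRCm38.p6 matched 5 of the 9 genes in this set and were searched on both strands over the 250 bases before the start. Tgfbi held 2 SMAD boxes, at 239 and 85 bases before the start, and Ltbp2 held 2, at 205 and 176 bases. The Ltbp2 start used lies inside the annotated gene. Its 2 positions therefore count across 67 bases within the gene, which are not printed below. Smad6, Ski and Smad3 held 0 there. Of 32851 promoters of the same length, 42.2% held at least 1 box, and a box there is a description, not a site. The 8-base palindrome of the SMAD box was in 0.167% of promoters and in 0 of the 5. The boxes are in capitals, as CAGAC or as GTCTG on the other strand. For Tgfbi (chr13:56609336-56609585, plus strand) and Smad3 (chr9:63757995-63758244, minus strand) all 250 bases are given, and for Ltbp2 (chr12:84876559-84876741, minus strand) the 183 bases that lie outside the annotated gene.
Tgfbi: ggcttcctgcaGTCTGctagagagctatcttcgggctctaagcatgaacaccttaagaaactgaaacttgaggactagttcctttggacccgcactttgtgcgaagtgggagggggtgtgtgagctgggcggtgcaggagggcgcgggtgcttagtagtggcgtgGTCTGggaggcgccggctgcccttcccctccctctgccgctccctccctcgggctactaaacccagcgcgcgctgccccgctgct
Ltbp2: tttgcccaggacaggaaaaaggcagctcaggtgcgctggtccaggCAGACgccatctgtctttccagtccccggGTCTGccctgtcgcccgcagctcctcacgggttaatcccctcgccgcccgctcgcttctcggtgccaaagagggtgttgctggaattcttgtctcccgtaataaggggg
Smad3: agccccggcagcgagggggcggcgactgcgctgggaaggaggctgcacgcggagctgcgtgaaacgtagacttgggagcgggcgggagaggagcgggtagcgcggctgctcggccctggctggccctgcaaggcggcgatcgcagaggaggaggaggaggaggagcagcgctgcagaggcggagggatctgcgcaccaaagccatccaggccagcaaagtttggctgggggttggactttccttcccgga
Smad6 and Ski, which like Smad3 held 0 boxes, are not printed. These letters say nothing of Smad binding elsewhere at the genes.

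IPFc, which contains TGF-β, moved few of the genes. In epithelial libraries 2 of 9 were higher (Pmepa1 and Skil) and 0 lower, where 4.1% of genes were called. Pmepa1 was at 76.0, 73.9, 112 and 109 CPM in mice 1 to 4, above all vehicle libraries, a rise of 1.45 (SE 0.12, edgeR adjusted p = 1.1e-07) that was seen in 4 of 4 mouse pairs. Skil was at 39.3, 49.3, 71.3 and 97.0 CPM, overlapping with vehicle but higher in 4 of 4 pairs, a rise of 0.54 (SE 0.10, edgeR adjusted p = 0.00242) that was not called without the mouse block (edgeR adjusted p = 0.466). The share of fibroblast RNA was up to 17.3% in these libraries. With it subtracted Pmepa1 rose by 1.59 (edgeR adjusted p = 0.00113) and Skil by 0.47 (edgeR adjusted p = 0.262), and with the share from Xist they rose by 1.76 (SE 0.76, edgeR adjusted p = 0.873) and 0.55 (SE 0.12, edgeR adjusted p = 0.11). The Xist fit again held the EC library of mouse 1 with its share of 46.0%, whose part in these SEs was not tested. Ccn2, which rose 4.24-fold with TGF-β, was at 95.5 to 115 CPM with IPFc, a difference from vehicle of 0.12 (95% interval -0.04 to 0.27, edgeR adjusted p = 0.623). Set directly against TGF-β, 7 of 9 genes were lower with IPFc and 0 higher, where 37.2% of genes were called. Ltbp2 was among the 7, beside a fibroblast share of 4.65 to 17.3% with IPFc and 24.1 to 28.7% with TGF-β. Ccn2 was lower by -1.97 on the log2 scale and Pmepa1 by -1.37.

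In fibroblast libraries edgeR called 0 of the 9 genes with IPFc, where 0.449% of genes were called. At an unadjusted p under 0.05 there were 2 (Pmepa1 and Smad6), beside 1174 of all 18048 genes, and DESeq2 called 1, Pmepa1, beside 1.01% of all genes. Pmepa1 was at 103, 109, 158 and 155 CPM in mice 1 to 4 and higher in 3 of 3 mouse pairs, a difference of 0.56 (SE 0.14, edgeR adjusted p = 0.108). It passed the test without mouse 1 (edgeR adjusted p = 0.027) and without the small EC library of mouse 1 (edgeR adjusted p = 0.00788). Against TGF-β, 4 genes (Skil, Ski, Pmepa1 and Ccn2) were lower with IPFc and 2 (Ltbp2 and Smad3) higher, where 17.4% of genes were called. Ccn2 was lower by -2.45 on the log2 scale (SE 0.27, edgeR adjusted p = 2.65e-06). Epithelial RNA could have supplied 60.3 to 91.3% of Ccn2 in these IPFc libraries, against 3.39 to 17.7% with TGF-β. After subtraction of the share from marker genes, 3 of the 9 genes were called against TGF-β, where 3.79% of all genes were called. The interaction of fraction and IPFc was called for 1 of the 9 genes, Pmepa1, where 0.229% of genes were called. The epithelial response exceeded that of fibroblasts by 0.90 (SE 0.18, edgeR adjusted p = 0.0306), and the call was lost after subtraction (1.12, edgeR adjusted p = 0.198) and when any of the 4 mice was left out (edgeR adjusted p from 0.114 to 0.247).

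EC contains no TGF-β. In epithelial libraries edgeR called 0 of 9, where 4.41% of genes were called, with 4 at an unadjusted p under 0.05 (Skil, Ski, Ltbp2 and Ccn2), beside 2585 of all 18024 genes, and 0 by DESeq2, beside 5.66% of all genes. Pmepa1 was at 23.0 to 53.3 CPM, a difference of 0.04 (95% interval -0.19 to 0.28, edgeR adjusted p = 0.929). Ltbp2, at 93.3 to 227 CPM, differed by 0.68 (SE 0.20, edgeR adjusted p = 0.0532) and the fibroblast share would bring 77.3% of it in mouse 1 and 105 to 123% in the other mice. It passed the test without mouse 3 (edgeR adjusted p = 0.0311). Against TGF-β, 8 of 9 genes were lower with EC and 0 higher, where 43.1% of genes were called. Ltbp2 was among the 8, beside a fibroblast share of 5.62 to 17.2% with EC and 24.1 to 28.7% with TGF-β. With the sex-linked share subtracted fewer members were called, as given below, where 20.9% of all genes were called.

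In fibroblast libraries EC lowered 1 of the 9 genes, Smad6, where 7.11% of genes were called. Smad6 was at 7.60, 8.98, 14.2 and 15.2 CPM in mice 1 to 4, below all vehicle libraries, a change of -0.84 (SE 0.19, edgeR adjusted p = 0.0111). These libraries held 37.2 to 52.6% epithelial RNA, and epithelial Smad6 was lower than fibroblast Smad6 with vehicle. Smad6 was not called after subtraction of that share (-0.72, edgeR adjusted p = 0.553), without mouse 4 (edgeR adjusted p = 0.251) or without the mouse block (edgeR adjusted p = 0.134). After that subtraction 0.195% of all genes were called for EC in fibroblasts. Ccn2 was at 30.8, 22.0, 48.3 and 57.0 CPM, for which epithelial RNA could have supplied 82.2 to 169%, and its difference of 0.48 did not pass the test (SE 0.28, edgeR adjusted p = 0.334). Against TGF-β, 4 genes (Skil, Ski, Pmepa1 and Ccn2) were lower with EC and 2 (Ltbp2 and Smad3) higher, where 35.4% of genes were called. The interaction of fraction and EC was called for 0 of the 9 genes by edgeR, where 4.59% of genes were called, with 3 at an unadjusted p under 0.05 (Smad6, Skil and Ltbp2), beside 3055 of all 18364 genes, and 1, Ltbp2, by DESeq2, beside 7.47% of all genes.

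The order of the 8 groups differed between the members. Pmepa1 ran from 442 ± 27.4 CPM in fibroblast TGF-β libraries (SD, n = 4) and 245 ± 8.70 CPM in epithelial TGF-β libraries (SD, n = 3) down to 33.8 ± 7.87 CPM in epithelial vehicle libraries (SD, n = 4). Both TGF-β groups were clear of the group below them, and the groups from fibroblast IPFc to fibroblast EC overlapped with their neighbours in that stretch. Fibroblast EC was clear of epithelial EC, which overlapped with epithelial vehicle. Ccn2 was highest in epithelial TGF-β libraries (376 ± 47.4 CPM, SD, n = 3), far from the next group, fibroblast TGF-β (117 ± 34.4 CPM, SD, n = 4). Skil was highest in both TGF-β groups (172 ± 24.2 CPM in fibroblast and 159 ± 47.8 CPM in epithelial libraries, SD, n = 4 and 3), which overlapped. For Smad7 the 4 fibroblast groups all overlapped with their neighbours, from 62.7 ± 19.4 CPM with TGF-β to 48.0 ± 18.4 CPM with vehicle (SD, n = 4 and 3). Ski was highest in fibroblast TGF-β libraries (195 ± 15.7 CPM, SD, n = 4), clear of epithelial TGF-β (154 ± 1.85 CPM, SD, n = 3), which overlapped with fibroblast vehicle. Ltbp2 ran from fibroblast vehicle (1716 ± 177 CPM, SD, n = 3) to epithelial vehicle (101 ± 36.9 CPM, SD, n = 4), and its fibroblast TGF-β group was clear of both neighbours. For Smad3 and Tgfbi each group overlapped with the next. Smad3 ran from 235 ± 24.2 CPM in fibroblast vehicle (SD, n = 3) to 89.6 ± 9.88 CPM in epithelial IPFc libraries (SD, n = 4), and Tgfbi from 6.37 ± 4.40 CPM in epithelial TGF-β (SD, n = 3) to 1.84 ± 0.887 CPM in fibroblast EC libraries (SD, n = 4). For Smad6 each group overlapped with the next, from fibroblast vehicle at 23.6 ± 10.8 CPM (SD, n = 3) to epithelial EC at 6.75 ± 0.956 CPM (SD, n = 4).

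Across the 30 libraries, after centring each fraction on its mean, Skil, Ski, Pmepa1 and Ccn2 held the 5 highest correlations between members. Pearson's r between Skil and Pmepa1 was 0.87, between Skil and Ski 0.83, between Ski and Pmepa1 0.81, between Ski and Ccn2 0.79 and between Pmepa1 and Ccn2 0.78. Smad7 and Ski followed with 0.74, above Skil and Ccn2 with 0.70. Smad3 had an r of -0.26 with Pmepa1 and 0.59 with Ltbp2. Among 13673 genes with a mean count of at least 10, the genes most like Pmepa1 were Col11a1, a fibrillar collagen (r = 0.93), Itgb3, an integrin subunit (0.93), and Dmp1 (0.92). Those most like Ski were Rusc2 (0.97), Actn1, an actin crosslinker (0.95), and Adam12, a metalloprotease (0.94). Those most like Skil were Plekha1 (0.94), Wwtr1, the transcriptional coactivator TAZ (0.93), and Tmem64 (0.93). Smad7 was nearest to Ulk1, an autophagy kinase (0.90), Gtf2ird1 (0.88) and Furin, a protease that processes the TGF-β precursor (0.87). Ccn2 was nearest to Fam210b (0.90), Prkcd (0.89) and Palld, an actin-binding protein (0.87). Smad3 was nearest to Samd12 (0.93), Adamtsl4 (0.86) and Pfkfb3 (0.85), and Ltbp2 to Aebp1 (0.90), Gm2115 (0.90) and Eno2 (0.90). The nearest genes of Tgfbi (Ankrd24, 0.81, Ces2g and Ntn1, both 0.77) and Smad6 (Ddr1, Plekhf1 and Irf1, each 0.75) followed them less. These values describe libraries that share exposures, mice and admixed RNA.

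The rest of the pathway, taken from lists by role, gave a background for the 9 genes. The counts of each list stand beside the 41.1% of all genes called with TGF-β in epithelial and the 19.2% called in fibroblast libraries. All epithelial values stand beside a fibroblast share that rose with TGF-β. All fibroblast values stand beside an epithelial share that fell, from 15.6 to 28.9% with vehicle to 1.06 to 3.77% with TGF-β. The part of either share in these values was not tested. Of 16 ligand and latency genes, 13 rose and 0 fell with TGF-β in epithelial libraries, and of 15 tested in fibroblast libraries 6 rose and 3 fell. Fbn1, the fibrillin that anchors latent TGF-β, went from 15.6 ± 6.64 (SD, n = 4) to 267 ± 17.7 CPM (SD, n = 3) in epithelial libraries, a rise of 4.38 (edgeR adjusted p = 2.5e-12), while fibroblast TGF-β libraries held 1038 ± 138 CPM (SD, n = 4). Fbn1 is also among the 24 fibroblast markers behind the share, which was 24.1 to 28.7% in epithelial TGF-β libraries. Its epithelial rise is therefore part of that estimate and not a separate result on the pathway. Itgb6, a subunit of the epithelial integrin that activates latent TGF-β, rose by 1.75 in epithelial libraries (edgeR adjusted p = 5.02e-10), and Itgb5 rose by 2.16 there and by 1.74 in fibroblasts (edgeR adjusted p = 1.76e-11 and 3.83e-08). Tgfb1, a ligand gene, rose by 1.44 in fibroblast libraries (edgeR adjusted p = 5.77e-07).

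Of 13 receptors and coreceptors, 6 rose and 3 fell in epithelial libraries and 1 rose and 3 fell in fibroblast libraries with TGF-β. The coreceptor Tgfbr3 fell in fibroblasts from 251 ± 22.7 (SD, n = 3) to 86.1 ± 7.47 CPM (SD, n = 4), a log2 fold change of -1.56 (edgeR adjusted p = 1.27e-07). Acvrl1 and Bmpr2, a type I and a type II receptor, rose in epithelial libraries by 2.71 and 1.22 (edgeR adjusted p = 4.98e-08 and 1.54e-07). Acvrl1 was at 21.4 ± 2.91 CPM in epithelial TGF-β libraries (SD, n = 3) and at 63.7 ± 8.28 CPM in fibroblast TGF-β libraries (SD, n = 4), beside the fibroblast share of 24.1 to 28.7%. Of the Smads and their partners, 8 of 21 rose and 3 fell in epithelial libraries, and 4 of 22 rose and 4 fell in fibroblast libraries. None of the 9 genes is in this list. The Smad corepressor Tgif1 rose in both fractions, by 1.05 and 0.79 (edgeR adjusted p = 4.35e-08 and 0.000178), Ldlrad4, another inhibitor of receptor signalling, rose by 2.04 in epithelial libraries (edgeR adjusted p = 1.24e-08), and Nedd4l, a ubiquitin ligase, fell in fibroblasts by -1.04 on the log2 scale (edgeR adjusted p = 3.31e-05).

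Other early targets rose for 18 of 24 genes and fell for 2 in epithelial libraries, and rose for 10 and fell for 4 in fibroblast libraries. Inhba, an activin subunit, rose in both, by 3.82 and 1.60 (edgeR adjusted p = 1.71e-13 and 4.38e-07). Sox4 rose by 2.23 in epithelial libraries (edgeR adjusted p = 6.25e-12), and Atf3, a stress-induced factor, fell in fibroblasts by -1.29 on the log2 scale (edgeR adjusted p = 1.28e-05). BMP target genes split evenly in the epithelium, with 5 of 10 higher and 5 lower, and in fibroblasts 5 of 12 were lower and 1 higher. Id1, a direct BMP target, fell in epithelial libraries from 85.4 ± 23.7 (SD, n = 4) to 15.1 ± 4.91 CPM (SD, n = 3), a log2 fold change of -2.46 (edgeR adjusted p = 4.02e-09), and Atoh8 fell in fibroblasts by -2.39 on the log2 scale (edgeR adjusted p = 3.96e-07). The BMP antagonist Grem1, which the same list holds, rose by 2.61 in epithelial libraries (edgeR adjusted p = 8.21e-10). Matrix and contractile targets rose for 26 of 28 genes and fell for 0 in epithelial libraries, and rose for 21 and fell for 2 in fibroblast libraries, led by Acta2, smooth muscle actin (5.71 and 3.25), and Tagln (6.60 and 4.22), while Ccn3, a relative of Ccn2, fell in fibroblasts by -2.44 on the log2 scale (edgeR adjusted p = 3.02e-09). With IPFc, 13 of these 28 genes rose in epithelial libraries and 1 in fibroblast libraries, where 4.1% and 0.449% of all genes were called.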

How the data were processed

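Bulk RNA-seq of 30 libraries (15 epithelial, 15 fibroblast) was used. The authors deposited raw counts per gene; their directional libraries were trimmed with Trimmomatic 0.30 and tested with DESeq2 1.34.0, and the aligner and counter are not given in the sources used here. The genome build is named as GRCm39 in the labels and GRCm38.p6 in the methods, so no gene coordinates are given beyond the RefSeq promoters. No columns were left unmapped. The counts were tested with edgeR 4.0.16 in R 4.3.3 (quasi-likelihood test, TMM, genes with a mean count of at least 1, Benjamini-Hochberg adjustment over all genes tested, threshold 0.05). All 4 exposures of a fraction shared 1 fit with the mouse as a block. Differences between fractions were fitted over 30 libraries with the mouse as a block, and interactions with the mouse nested in fraction. SE was computed as the log2 fold change over the square root of F, and 95% intervals from it with the normal quantile. At these degrees of freedom the intervals are somewhat too narrow and can exclude 0 where the test does not pass. The p-values and intervals cover the spread between these co-cultures. Libraries of a group differed by more than counting noise in all 42 replicate pairs.

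The pairing comes from the labels, in which a number is a mouse. Deviations of libraries from their group means were correlated over 13673 genes. In epithelial libraries the mean r was 0.238 within a mouse and -0.0772 between mice. In fibroblast libraries it was 0.273 and -0.0894. Centring on group means itself lowers the values between mice, so they are no separate check. Between the fractions the mean r was -0.00783 for libraries of the same culture and 0.00889 for other mice. The check therefore did not show the pairing across fractions. The tests between fractions with a mouse block and the share from the partner library take that pairing from the labels alone.

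The share of the other fraction was taken over markers at 50 CPM or more in the partner library and subtracted, scaled to depth, as an alternative. Other alternatives were DESeq2 1.42.0, RLE size factors, other count filters, robust dispersion, no block, separate fits, each mouse left out and, chosen after seeing the data, the sex-linked share and leaving out the smallest library. The test was tested on simulated data: of 100 genes changed by 1 on the log2 scale, 100 were recovered for TGF-β in epithelial libraries, 96 in fibroblast libraries and 63 for the interaction. The simulation had 1 common dispersion, no mouse effect and no admixed RNA, and changed only genes with an expected mean of at least 50 counts. It therefore does not give the power for these members in these libraries. The members and lists were chosen with earlier results of these data known. Named beside the 9 members were, per list and fraction, up to 3 genes with the smallest adjusted p, and per member the 3 genes with the highest r. One gene that this rule names is not reported here. No promoter was printed for 4 members that had no entry in the RefSeq table.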

Additional observations from a re-analysis of the deposited data

Results flagged for a closer look

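Among 54 groups of 4 libraries of the 9 genes, 1 held a library far from the others. Ski in the epithelial vehicle library of mouse 2 was at 65.1 CPM, with the other 3 at 81.9 to 84.0 CPM. Chance alone marks about 1 in 20 such groups.

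The response to TGF-β differed between the fractions for 5 genes by the interaction test, with differences (epithelial minus fibroblast, log2) of 1.33 for Smad6, 0.91 for Skil, 1.72 for Tgfbi, 2.46 for Ltbp2 and 1.13 for Smad3. The response to IPFc differed for Pmepa1, by 0.90. The shares of the other fraction's RNA moved with the exposure in both fractions, and after subtraction of the share from marker genes the differences of Smad6, Skil and Smad3 were 1.64, 1.09 and 1.35, all called by edgeR.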

How the results depend on the processing

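RLE size factors, a filter by expression and robust dispersion kept every count of called genes within 1.5 times its value as reported, and no gene changed direction with them in the comparisons against vehicle. No gene named below as changing direction was called before or after, and the cause of each change was not tested. With DESeq2, 1 gene instead of 0 was called for IPFc in fibroblasts and 1 instead of 0 for the EC interaction. Of all genes, DESeq2 called 1.01 and 7.47% in these comparisons. Without a filter on low counts the numbers were 1 for EC in epithelial libraries, 1 for IPFc and 2 for EC in fibroblasts, 2 for the IPFc and 1 for the EC interaction. In that order, 4.34, 0.923, 7.53, 0.967 and 4.53% of all genes were called. In separate fits of 2 exposures 1 gene was called for EC in epithelial and 2 in fibroblast libraries. Of all genes, these fits called 4.67 and 10.1%. Smad7 turned to -0.083 with EC in fibroblasts in its separate fit.

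Without the replicate block (the mouse pairing) 1 gene was called for IPFc in epithelial libraries, 0 for EC in fibroblasts and 0 for the IPFc interaction, and Ski turned to -0.013 with IPFc in fibroblasts. Of all genes, 1.65, 1.78 and 0.0327% were called in these 3 comparisons.

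After subtraction of the share from marker genes 1 gene was called for IPFc and 1 for EC in epithelial libraries, 4 for TGF-β and 0 for EC in fibroblasts, 3 for IPFc against TGF-β in fibroblasts, 2 between fractions with TGF-β, 0 for the IPFc and 1 for the EC interaction. In that order, 0.961, 1.92, 4.85, 0.195, 3.79, 40.9, 0.345 and 1.13% of all genes were called. With the sex-linked share the numbers were 5 for TGF-β, 0 for IPFc and 5 for EC against TGF-β in epithelial libraries, 4 for TGF-β, 0 for EC and 3 for IPFc against TGF-β in fibroblasts, 2 between fractions with TGF-β, 3 for the TGF-β and 0 for the IPFc interaction. In that order, 17.6, 0.445, 20.9, 5.74, 0.222, 4.58, 43.6, 10.7 and 0.0439% of all genes were called. Genes that changed direction with subtraction were, for epithelial IPFc, Smad6 (0.038, sex-linked 0.084) and Ltbp2 (-4.18, from levels near 0), and for epithelial EC, Pmepa1 (-0.093, sex-linked -0.43) and Smad3 (-0.067, sex-linked -0.16). For fibroblast IPFc they were Tgfbi (0.045, sex-linked 0.050) and Ski (sex-linked -0.020). For fibroblast EC they were Ski (0.034), Pmepa1 (0.097), Ltbp2 (0.13), Smad3 (0.034) and Ccn2 (-0.98, sex-linked -0.34).

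Leaving out 1 mouse or the smallest library, the number called ran from 0 to 1 for EC in epithelial libraries and for IPFc in fibroblasts. It also ran from 0 to 1 for EC in fibroblasts and for the IPFc interaction, and from 3 to 6 between fractions with TGF-β. In that order, 2.33 to 3.97, 0.0779 to 1.45, 1.21 to 11.2, 0.0543 to 0.402 and 36.6 to 51.9% of all genes were called. Log2 fold changes ran through 0 for epithelial IPFc in Smad6 (-0.12 to 0.051), Ski (-0.090 to 0.048) and Tgfbi (-0.48 to 0.045), for epithelial EC in Pmepa1 (-0.094 to 0.11) and Smad3 (-0.068 to 0.14), for fibroblast IPFc in Smad7 (-0.12 to 0.34) and Ski (-0.070 to 0.15), and for fibroblast EC in Smad7 (-0.20 to 0.31). Depth limits Tgfbi most, at 5 to 214 reads per library.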
